A study of Mus musculus with 6 samples.

Results

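The chemokine CXCL12 and its receptors were followed in embryonic submandibular glands (eSMGs) of the mouse through 3 genes, Cxcl12, Cxcr4 and Ackr3 (also called Cxcr7), chosen by name as the ligand and the receptors that bind it. They were 3 of the 23260 gene lines kept, and all 3 had enough counts to be tested. The study asked what blocking CXCR4 does to the branching gland, and its mRNA was read by 3′ sequencing, in which each read comes from near the end of a transcript, in 3 control libraries and 3 libraries treated with AMD3100, a small molecule that occupies CXCR4 and keeps CXCL12 from signalling through it. All 6 libraries came from glands of ICR mice at embryonic day 14 (E14). The glands were kept in culture for 6 h with or without 50 µM AMD3100, and each tube pooled up to 10 glands. ICR mice are outbred, no allele or transgene was used, and the labels do not say whether the tubes of a group came from separate litters or cultures, so p-values measure the spread between tubes. Whole glands were used, so epithelium, mesenchyme, vessels, nerves and blood were read together.

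CXCL12 is a secreted chemokine, made in many organs by mesenchymal and stromal cells, that binds heparan sulfate and guides cells that carry its receptors. CXCR4 is the signalling receptor, a seven-transmembrane protein coupled to inhibitory G proteins, which after activation is phosphorylated, bound by arrestins and taken into the cell. ACKR3 is an atypical receptor that also binds CXCL12 but does not couple to G proteins in the usual way, and it recruits arrestin and carries the ligand into the cell for breakdown, which lowers the CXCL12 available to CXCR4. The authors of the study cite earlier work in which AMD3100 acted on CXCR7, that is ACKR3, as well as on CXCR4. In developing organs the axis is known for the homing of blood progenitors, vessel growth and the migration of neural and germ cells.

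In GRCm38.p6, the RefSeq assembly that corresponds to the build named in the submitters' processing notes, Cxcl12 lies on the plus strand at chr6:117168535-117181368, Cxcr4 on the minus strand at chr1:128588199-128592299 and Ackr3 on the plus strand at chr1:90203980-90215724. The 250 bases before each annotated start are shown because all 3 genes are compared as mRNA and their annotated transcripts begin just after these windows. They lie in the promoter, outside the transcribed part of the gene, at chr6:117168285-117168534 for Cxcl12, chr1:128592300-128592549 for Cxcr4 and chr1:90203730-90203979 for Ackr3. Each is written 5′ to 3′ on the strand of its gene, from RefSeq, and capitals mark matches on either strand to the TATA box TATAAA, the GC box GGGCGG or the core of the NRF1 motif, GCATGCGC.
Cxcl12: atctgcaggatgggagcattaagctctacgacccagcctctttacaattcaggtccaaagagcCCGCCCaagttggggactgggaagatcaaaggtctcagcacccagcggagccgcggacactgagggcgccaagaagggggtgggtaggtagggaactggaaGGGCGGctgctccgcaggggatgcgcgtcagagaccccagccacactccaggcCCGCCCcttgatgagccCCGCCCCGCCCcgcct
Cxcr4: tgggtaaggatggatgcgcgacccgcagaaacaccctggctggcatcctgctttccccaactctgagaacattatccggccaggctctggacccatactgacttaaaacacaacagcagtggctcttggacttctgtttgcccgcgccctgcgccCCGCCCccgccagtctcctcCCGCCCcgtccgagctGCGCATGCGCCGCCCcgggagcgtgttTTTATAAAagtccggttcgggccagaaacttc
Ackr3: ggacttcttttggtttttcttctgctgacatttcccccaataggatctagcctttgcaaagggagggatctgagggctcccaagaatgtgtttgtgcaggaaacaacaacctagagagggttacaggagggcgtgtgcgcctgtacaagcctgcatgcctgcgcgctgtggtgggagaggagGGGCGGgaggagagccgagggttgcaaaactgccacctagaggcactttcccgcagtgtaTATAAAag

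The Cxcl12 window held 5 GC boxes, the nearest beginning 11 bases before the start, and no TATA box. Cxcr4 held a TATA box beginning 30 bases before the start, overlapped by a second match on the other strand, together with 3 GC boxes and overlapping matches to the NRF1 core, 1 on each strand, one of which shares a base with a GC box. Ackr3 held a TATA box beginning 8 bases before the start and 1 GC box. Among all 32851 RefSeq promoters in windows of the same length, 12.4% held TATAAA, 32.7% held GGGCGG and 2.26% held GCATGCGC. ACGTG, the core of the hypoxia response element, was in none of the 3 windows and in 16.6% of all promoters. These matches describe the sequence alone.

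At their 3′ ends, where the reads fall, Cxcr4 and Ackr3 each had 1 transcript and Cxcl12 had 3 protein-coding transcripts in GENCODE vM1 (NCBIM37, an older build, used here for transcript ends only), of which a pair ended within 1 base of each other and the other ended 6298 bases away. The counts are given by gene symbol and not by transcript, so the Cxcl12 isoforms could not be told apart. The annotation behind the counts is not given, so whether reads at each of these ends were counted is not known. No other annotated gene overlapped the last 300 bases of any of these transcripts, and none of the 11 simulated reads from each end matched another place in the genome within 1 mismatch.

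The libraries held 11532946, 13127539 and 10869528 counts in control replicates 1, 2 and 3, and 14393031, 11358828 and 9051595 in AMD3100 replicates 1, 2 and 3. The ribosomal RNA precursor Rn45s took between 16.2% and 32.5% of them. Both replicate 3 libraries stood apart from the other 4 in the markers of several cell types. The summed level of 12 mesenchyme markers, in CPM (a gene's counts for every 1000000 counts of its library, after TMM scaling between libraries), was 4320, 4267 and 2081 in the controls and 4337, 4288 and 1827 with AMD3100. The summed level of 12 skeletal muscle markers was 376, 387 and 2126 in the controls and 259, 217 and 2922 with AMD3100. The 2 libraries that shared the number 3 thus had the lowest mesenchyme sum and the highest muscle sum of their groups.

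Over all 13610 genes tested by edgeR's quasi-likelihood test, 0% passed an adjusted p of 0.05. At an unadjusted p under 0.05 there were 228 genes, or 1.68%, of which 0.397% of all genes were higher and 1.28% lower with AMD3100. With the replicate number as a block the count at an unadjusted p under 0.05 was 907 and that at an adjusted p under 0.05 was 3. In 7.44% of the genes tested all 3 AMD3100 libraries lay on one side of all 3 controls, 3.28% above and 4.17% below. The log2 fold change was above 0 for 52.2% of the genes and below 0 for 47.8%, with a median of 0.02. The counts for the ligand and its receptors are read against these shares.

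Cxcl12, the ligand, averaged lower with AMD3100, but its groups overlapped and the difference did not pass the test. It was read at 115, 107 and 175 CPM in control replicates 1, 2 and 3 and at 98.1, 123 and 79.9 CPM in AMD3100 replicates 1, 2 and 3. The groups overlapped, since AMD3100 replicate 2 lay above 2 of the controls, and the highest and the lowest value of the series both belonged to replicate 3. The control mean was 132 ± 37.2 CPM and the AMD3100 mean 100.4 ± 21.7 CPM (SD, n = 3 per group), which gave a log2 fold change of -0.39 (SE 0.32, 95% interval -1.12 to 0.33, edgeR adjusted p = 1.0). A two-sided exact permutation test of the log2 levels gave p = 0.3, where the smallest p that 3 against 3 allows is 0.1.

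The lower mean of Cxcl12 rested on the replicate 3 tubes. Between tubes of the same number, the log2 difference was -0.22 for replicate 1, 0.21 for replicate 2 and -1.13 for replicate 3. With replicates 1 and 2 alone the log2 fold change was -0.01 (SE 0.18). The replicate 3 tubes had similar mesenchyme sums, which were low in both, while Cxcl12 was the highest of its group in one and the lowest in the other. The order within replicate 1 also followed the scaling: in CPM of all counts, without TMM scaling, Cxcl12 stood at 113 in control replicate 1 and at 118 in AMD3100 replicate 1, the reverse of the order after TMM scaling. In RNA from whole glands, fewer cells of a type and less RNA per cell cannot be told apart.

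Cxcr4, the receptor that AMD3100 occupies, also averaged lower with AMD3100 without passing the test. It was read at 28.9, 10.3 and 30.3 CPM in the controls and at 17.7, 15.0 and 16.2 CPM with AMD3100. Control replicate 2 was the lowest of all 6 libraries and the other 2 controls were the highest, so the treated tubes lay between them. The control mean was 23.2 ± 11.1 CPM and the AMD3100 mean 16.3 ± 1.36 CPM (SD, n = 3 per group), with a log2 fold change of -0.50 (SE 0.44, 95% interval -1.51 to 0.50, edgeR adjusted p = 1.0) and a two-sided exact permutation p = 0.4. The log2 difference between tubes of the same number was -0.70, 0.54 and -0.90 for replicates 1, 2 and 3. Without control replicate 2 the log2 fold change was -0.86 (SE 0.37), the largest decrease among the settings tried, and with replicates 1 and 2 alone it was -0.26.

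Ackr3, the atypical receptor, was higher in every AMD3100 tube than in every control tube. It was read at 5.78, 0.728 and 1.70 CPM in the controls and at 6.22, 6.73 and 7.0 CPM with AMD3100, from 66, 10 and 17 counts and from 108, 73 and 57 counts. The treated tubes lay close together, whereas control replicate 1 stood near them and the other 2 controls well under them. The control mean was 2.73 ± 2.68 CPM and the AMD3100 mean 6.65 ± 0.395 CPM (SD, n = 3 per group), a ratio of 2.43. The log2 fold change was 1.28 (SE 0.82, 95% interval -0.59 to 3.15, edgeR adjusted p = 1.0), which did not pass the test. A two-sided exact permutation test gave p = 0.1, the smallest that 3 against 3 allows, and 3.28% of all genes tested also had all treated tubes above all controls.

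Among the 3 genes Ackr3 had the fewest counts. In CPM of all counts, without TMM scaling, control replicate 1 held 5.72 (95% Wilson interval 4.50 to 7.28), which overlapped the 6.30 (4.86 to 8.16) of AMD3100 replicate 3, while control replicate 2 held 0.762 (0.414 to 1.40). These intervals cover counting error only. The log2 difference was 0.11 in replicate 1, 3.21 in replicate 2 and 2.05 in replicate 3, so the sign was shared and the size was not. Without control replicate 1 the log2 fold change was 2.45 (SE 0.80), with an unadjusted p under 0.05, and without control replicate 2 it was 0.83 (SE 0.77). With replicates 1 and 2 alone it was 0.99 (SE 1.08). With the replicate number as a block it was 1.76 (SE 0.86, edgeR adjusted p = 0.770).

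**Figure D1:**
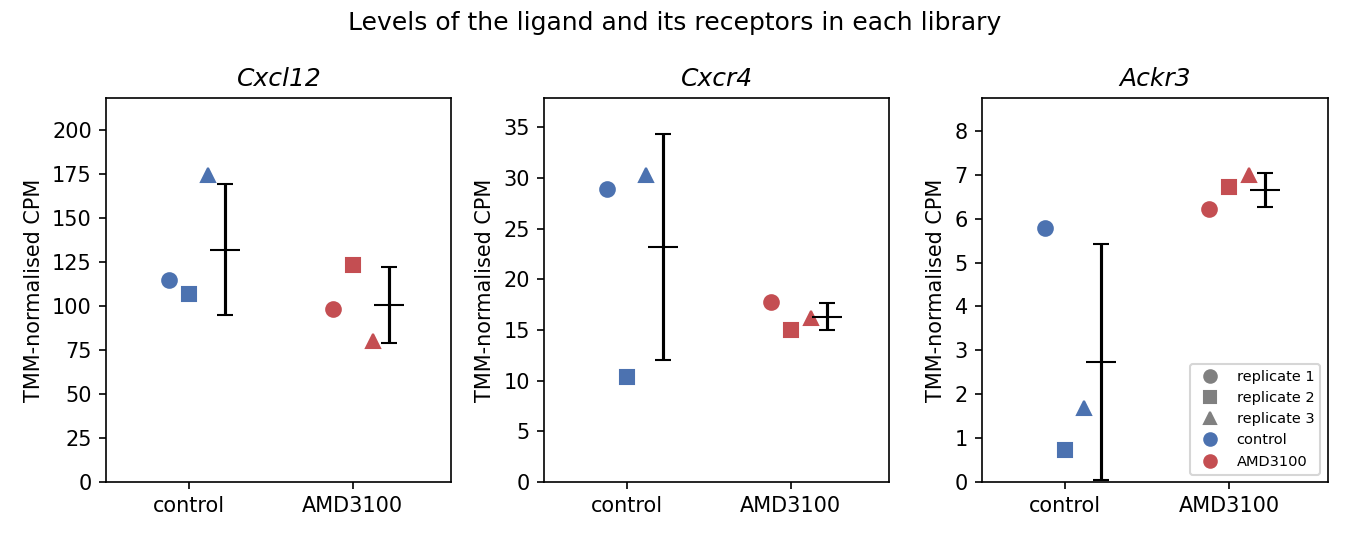
Level of Cxcl12, Cxcr4 and Ackr3 in each library, in CPM after TMM scaling, with 1 panel per gene and each axis starting at 0. Points are single libraries, with shapes for replicates, blue for control and red for AMD3100, and bars are group means with SD (n = 3). The groups overlap for Cxcl12 and Cxcr4, and for Ackr3 the AMD3100 libraries (6.22 to 7.0 CPM) all lie above the controls (0.728 to 5.78 CPM).

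Both receptors varied less among the AMD3100 tubes than among the controls in these libraries. The highest control level was 2.93 times the lowest for Cxcr4 and 7.93 times the lowest for Ackr3, against 1.18 and 1.13 times with AMD3100. This narrow range of Cxcr4 followed the scaling in part. In CPM of all counts, without TMM scaling, Cxcr4 stood at 28.6, 10.8 and 28.0 in the controls and at 21.4, 14.4 and 14.6 with AMD3100, and the 95% Wilson intervals of AMD3100 replicates 1 (19.1 to 23.9) and 2 (12.3 to 16.7) did not overlap. For Cxcl12 the same ratios after TMM scaling were 1.64 in the controls and 1.54 with AMD3100. Genes of a level within 1.5-fold of that of Cxcr4 had median ratios of 1.96 in the controls and 1.89 with AMD3100 (2740 genes), and those near Ackr3 had 2.75 and 2.79 (1810 genes). This comparison was chosen after the values were seen, no test of the spread was made, and with 3 tubes a group the spread itself is poorly known.

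The balance between the genes was compared as ratios of counts inside each library, which do not depend on the scaling between libraries. The ratio of Cxcl12 to Cxcr4 counts was 3.96, 10.3 and 5.76 in the controls and 5.53, 8.20 and 4.93 with AMD3100. Replicate 2 had the highest ratio in both groups, and the mean log2 ratio differed by -0.02 (two-sided exact permutation p = 0.9). The ratio of Cxcr4 to Ackr3 counts was 5.0, 14.2 and 17.9 in the controls and 2.85, 2.23 and 2.32 with AMD3100. Every treated tube thus had fewer Cxcr4 counts per Ackr3 count than any control, with a mean log2 difference of -2.14. The ratio of Cxcl12 to Ackr3 counts was 19.8, 146 and 103 in the controls and 15.8, 18.3 and 11.4 with AMD3100, a mean log2 difference of -2.17. A two-sided exact permutation test gave p = 0.1, the smallest that 3 against 3 allows, for each of the ratios to Ackr3, but they were chosen after the levels were seen, and the low Ackr3 counts of control replicates 2 and 3 enter both of them.

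**Figure D2:**
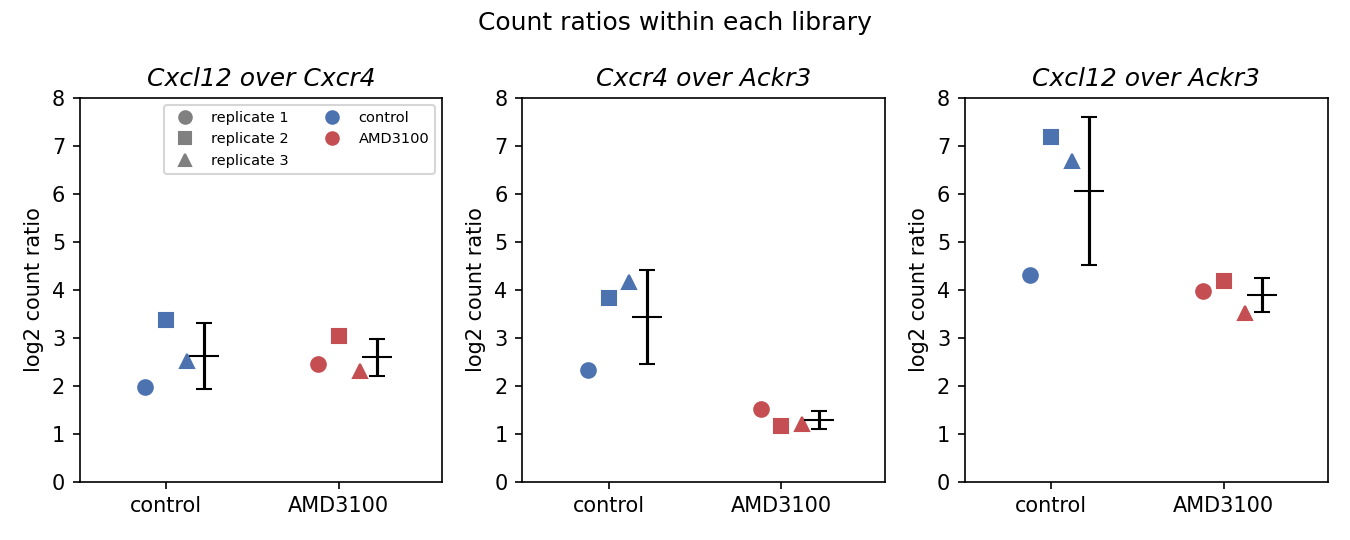
Log2 ratio of counts between the ligand and its receptors inside each library, 1 panel per ratio, with marker shapes for replicates, blue for control and red for AMD3100, and bars for the group mean with SD (n = 3). Cxcl12 over Cxcr4 (ratios of 3.96 to 10.3) overlaps between the groups, and both ratios to Ackr3 are lower in all AMD3100 libraries than in all controls.

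The direction of each gene was the same in the 16 other ways of processing that were tried. All of them reuse the same 6 libraries. For Ackr3 all treated tubes lay above all controls, so leaving out tubes was not expected to reverse its sign. The log2 fold change ranged from -0.56 to -0.01 for Cxcl12, from -0.86 to -0.26 for Cxcr4 and from 0.83 to 2.45 for Ackr3. An unadjusted p under 0.05 was reached in 0 of the 16 for Cxcl12 and for Cxcr4, and in 2 for Ackr3, namely without control replicate 1 and with limma-voom after quantile normalization (log2 fold change 2.12, SE 0.91). The lowest adjusted p over these settings was 0.826 for Cxcl12, 0.876 for Cxcr4 and 0.770 for Ackr3.

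**Figure D3:**
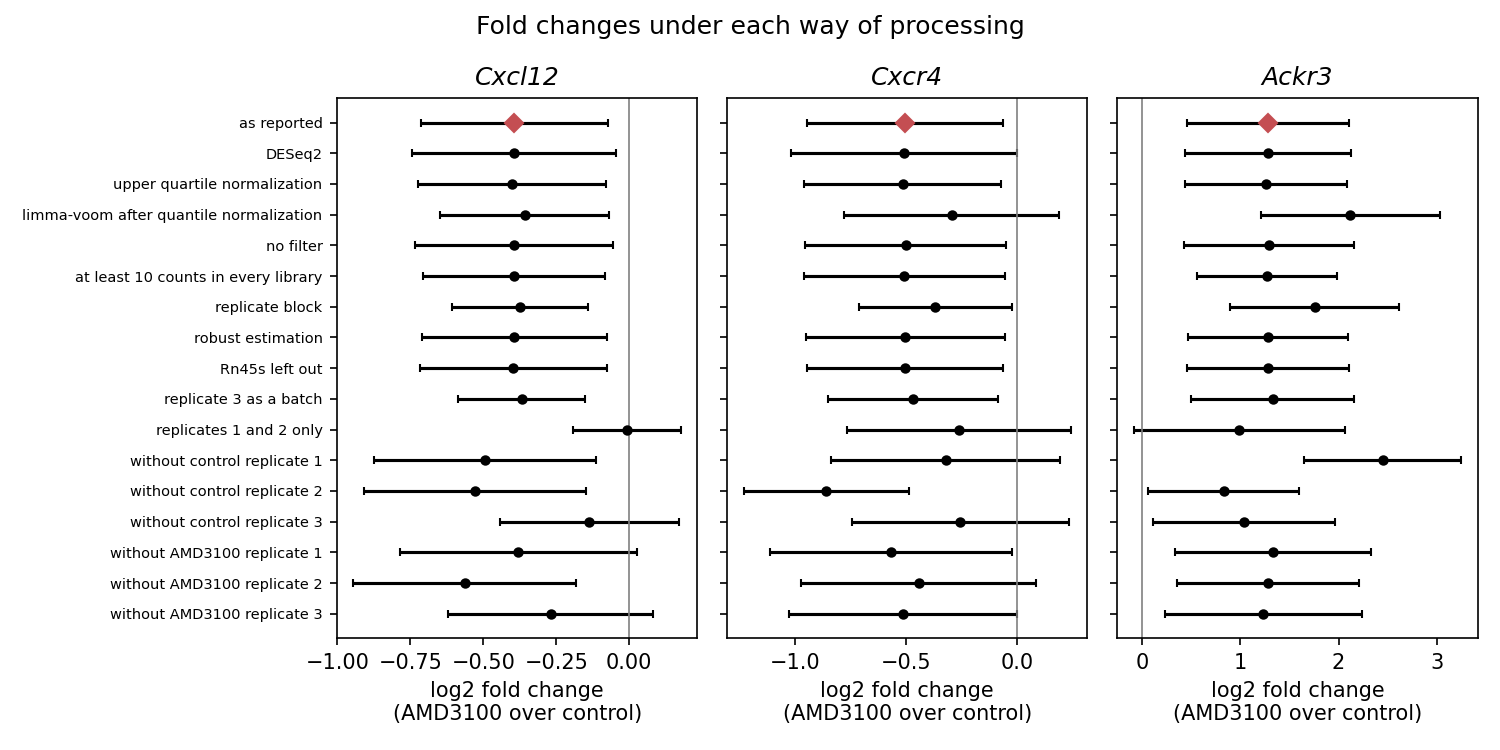
Log2 fold change of AMD3100 against control for Cxcl12, Cxcr4 and Ackr3 under the main fit and 16 alternatives, 1 row per setting, with bars of 1 SE, a red diamond for the values as reported and a line at 0. Cxcl12 and Cxcr4 lie below 0 and Ackr3 above 0 in every setting, with Cxcl12 nearest to 0 when replicates 1 and 2 are used alone.

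The genes most like Cxcl12 and Cxcr4 in profile were found by the root mean square difference of centred log2 CPM over the 6 libraries, among 8246 genes of at least 10 CPM on average. Nearest to Cxcl12 were Med11, a Mediator subunit, at 0.125, 2610507B11Rik at 0.133, Abce1, a ribosome recycling factor, at 0.15, Ran, the GTPase of nuclear transport, at 0.153, and Fgfr1, a fibroblast growth factor receptor, at 0.154. The median gene lay at 0.557 from Cxcl12. Nearest to Cxcr4 were Rbm18, an RNA-binding protein gene, at 0.158, Dgcr6 at 0.159, Irf8, a transcription factor of myeloid cells, at 0.172, Sh3bp2, an adaptor protein gene, at 0.181, and Gng2, a G protein gamma subunit, at 0.225, against a median of 0.683. Cxcr4 lay at 0.457 from Cxcl12 as its 2297th nearest gene, and Cxcl12 was the 448th nearest to Cxcr4, in both cases nearer than the median gene. Ackr3 was under 10 CPM and was given no list.

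Markers of the cell types that a whole gland can hold were summed beside these levels. All 12 epithelial and all 12 mesenchymal markers passed the filter on low counts, so both layers of the labelled tissue were read. Epithelial markers, led by Krt15, summed to 2259, 2227 and 1563 CPM in the controls and to 2680, 2400 and 3563 CPM with AMD3100, and 9 of the 12 had a log2 fold change above 0. The treated sums lay above all control sums, but this rested on Krt15. Without it the sums were 1218, 1216 and 675 CPM in the controls and 1313, 1385 and 1091 CPM with AMD3100, and the groups overlapped. Of the single markers, Cdh1, the adhesion protein E-cadherin, and Cldn4, a tight junction protein, had all treated tubes above all controls, 2 of 12 against 3.28% of all genes. Cdh1 stood at 337, 302 and 211 CPM in the controls and at 344, 394 and 507 CPM with AMD3100 (log2 fold change 0.55, SE 0.31, edgeR adjusted p = 1.0), and Cldn4 had a log2 fold change of 0.43 (SE 0.28). Mesenchymal markers, led by Col3a1, had 4 of 12 above 0 and 8 below, with sums that were alike between groups of the same number. Osr1, a transcription factor of the mesenchyme, was the 1 marker of 12 with all treated tubes below all controls, against 4.17% of all genes, at 184, 172 and 169.5 CPM in the controls and 148, 140.0 and 161 CPM with AMD3100 (log2 fold change -0.23, SE 0.26). Cdh1, Cldn4 and Osr1 were named after their values were seen. In the main fit, without a block, no epithelial or mesenchymal marker had an unadjusted p under 0.05. The lowest p belonged to Krt15, a basal progenitor keratin, at a log2 fold change of 0.72 (SE 0.37), and Twist1, a mesenchymal transcription factor, at -0.87 (SE 0.47). Krt15 was at 0.27 (SE 0.30) without AMD3100 replicate 3 and at 0.98 (SE 0.39) without AMD3100 replicate 2. Twist1 was at -1.41 (SE 0.50) without AMD3100 replicate 1 and at -0.63 (SE 0.49) without AMD3100 replicate 2. The unadjusted p was under 0.05 for Krt15 without AMD3100 replicate 2 and for Twist1 without AMD3100 replicate 1.

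Endothelial markers, led by Egfl7, summed to 113, 104 and 215 CPM in the controls and to 83.4, 157 and 161 CPM with AMD3100, with 3 of the 10 markers tested above 0. Leukocyte and macrophage markers summed to 147, 118 and 330 CPM and to 138, 159 and 230 CPM, with 5 of 12 above 0. C1qb, a complement gene, named after its values were seen, was the 1 of these 12 markers with all treated tubes below all controls, against 4.17% of all genes. Its log2 fold change was -0.22 (SE 0.40). C1qa, a complement component of macrophages with the highest mean CPM of the list, stood at 15.8, 14.0 and 123 CPM in the controls and at 23.0, 18.5 and 95.0 CPM with AMD3100, so replicate 3 was high in both groups. In the other 4 libraries Csf1r, a receptor of macrophage growth factor, was higher than C1qa. In the controls Cxcr4 was lowest where these sums were lowest, in replicate 2, and, after TMM scaling, highest where they were highest, in replicate 3. In CPM of all counts, without that scaling, Cxcr4 stood at 28.6 in control replicate 1 and at 28.0 in control replicate 3. With AMD3100 the highest sum was in replicate 3 and the highest Cxcr4 in replicate 1.

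Erythroid markers, led by the globin Hba-a1, summed to 7260, 19426 and 11367 CPM in the controls and to 7014, 11019 and 11922 CPM with AMD3100, with 1 of the 10 markers tested above 0. Their median log2 fold change was -0.40, and 0.019 without control replicate 2. The highest erythroid sum belonged to that library, the tube with the lowest Cxcr4 and the lowest Ackr3. Neuron and glia markers, with Prph highest in the replicate 3 tubes and Gap43 in the other 4, summed to 1270, 1103 and 1094 CPM and to 1191, 978 and 1565 CPM, with 6 of 12 above 0. Skeletal muscle markers had 10 of 12 above 0 with a median log2 fold change of 0.42. Myog, a transcription factor of muscle differentiation, had their highest mean CPM through the replicate 3 tubes, while Actc1, a muscle actin, was higher in the other 4. The muscle median had no fixed direction. It was 2.04 without control replicate 3, -1.85 without AMD3100 replicate 3, 0.011 and -0.017 without control replicates 1 and 2, and -0.27 with limma-voom, and with replicates 1 and 2 alone it was -0.64, with 1 of 12 above 0. No marker of any list was at 0 in every library, and in the main fit, without a block, none had an unadjusted p under 0.05. Some markers reached this p with 1 library left out. Without AMD3100 replicate 3, 8 of 12 muscle markers were lower and 0 higher. In that setting 451 of all genes reached this p in either direction, against 228 of 13610 in the main fit. Without control replicate 3, 2 of 12 leukocyte markers were higher and 0 lower, and 547 of all genes reached this p in either direction. The share of all genes by direction was not counted in these settings, so the marker counts are not read as a result about the cell types. The lowest p of the endothelial, leukocyte, erythroid and muscle lists belonged to Kdr, a receptor of vascular growth factor (log2 fold change 0.77, SE 0.51), Lyz2, the lysozyme of macrophages (-1.05, SE 0.78), Hba-a2, an alpha globin (-0.70, SE 0.40), and Myh8, a muscle myosin (1.17, SE 0.95). Each moved with 1 library, Kdr to 0.13 without AMD3100 replicate 2, Hba-a2 to -0.22 without control replicate 2, Lyz2 to 0.46 without control replicate 3 and Myh8 to -0.74 without AMD3100 replicate 3. Hba-a2 was at -1.02 (SE 0.36) without control replicate 1, with an unadjusted p under 0.05. With the replicate number as a block, an unadjusted p under 0.05 was reached by the epithelial markers Cdh1, Krt14, Krt15 and Cldn4, all higher with AMD3100, and by Twist1, the adult globins Hbb-bt and Hbb-bs and the muscle factors Myod1 and Myog, all lower. Of all genes tested with the block, 2.79% were higher and 3.87% lower at this p. Under the block the log2 fold change was 0.62 (SE 0.23) for Krt15 and -0.97 (SE 0.34) for Twist1, and the muscle median was -0.16. With replicates 1 and 2 alone no epithelial, mesenchymal, endothelial or leukocyte marker reached that p. The lower calls were 3 of 11 erythroid and 4 of 12 muscle markers, against 2.96% of all genes lower. The higher call was 1 of 12 neuron and glia markers, against 2.76% of all genes higher. The median was then -0.02 for the endothelial markers, against -0.34 with all libraries, and 0.087 for the epithelial markers, against 0.20, which was -0.01 without control replicate 3. The part of these cell types in the levels of Cxcl12, Cxcr4 and Ackr3 was not tested.

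**Figure D4:**
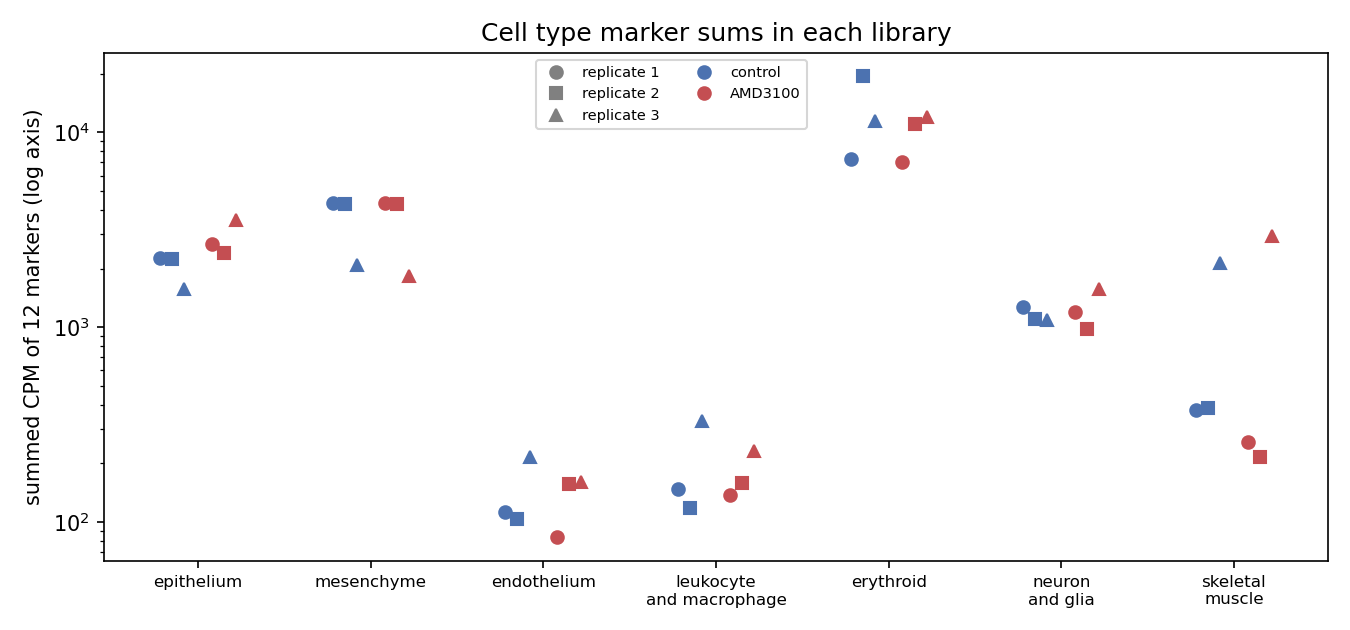
Summed CPM of the markers of each cell type in each library, on a log axis, with shapes for replicates, blue for control and red for AMD3100. Replicate 3 of both groups is low in mesenchyme and high in skeletal muscle, and the epithelial sums of the AMD3100 libraries (2400 to 3563 CPM) lie above those of the controls (1563 to 2259 CPM), which no longer holds when Krt15 is left out of the sum.

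The genes around the axis were read as lists of 87 genes in all, of which 85 had a count and 79 were tested. A log2 fold change above 0 was found for 35 and below 0 for 44, a share below 0 of 55.7% against 47.8% of all genes. An unadjusted p under 0.05 was reached by 0 higher and 2 lower genes, beside 0.397% and 1.28% of all genes. With the replicate number as a block there were 2 higher and 2 lower, beside 2.79% and 3.87% of all genes, and with replicates 1 and 2 alone there were 2 higher and 3 lower of 78, beside 2.76% and 2.96%. All treated tubes lay on one side of all controls for 7 genes, 2 above and 5 below, or 8.86% against 7.44% of all genes. The lists were near the background of all genes in these shares.

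Other ligands, co-receptors and binding partners of CXCL12, CXCR4 or ACKR3 had 7 of 10 genes tested. Of these 2 were above 0 and 5 below, with a median log2 fold change of -0.03, and none had groups apart. This median was -0.16 without control replicate 1 and 0.04 without AMD3100 replicate 2. The most abundant was Mif, a cytokine that can bind CXCR4, at 229 ± 51.4 CPM in the controls and 242 ± 63.5 CPM with AMD3100 (SD, n = 3 each). Sdc1, a heparan sulfate proteoglycan, had the lowest p of the list, with a log2 fold change of -0.34 (SE 0.28, edgeR adjusted p = 1.0), or -0.21 (SE 0.30) without control replicate 3. Cd74, Cxcl11 and Cxcl14 had too few counts for the test, with 33, 40 and 63 over the 6 libraries.

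Of the proteases that cut CXCL12, 4 of 6 were tested and all 4 were above 0, with a median of 0.07. This median was 0.27 without control replicate 2 and -0.01 without AMD3100 replicate 2. The most abundant was Mmp14, a membrane matrix metalloproteinase, at 251 ± 42.0 CPM in the controls and 260 ± 33.7 CPM with AMD3100. Dpp4, the surface peptidase that removes the first residues of CXCL12 and so inactivates it, was read at 0.613, 1.6 and 0.997 CPM in the controls and at 2.48, 4.98 and 2.09 CPM with AMD3100. It was the 1 of the 4 tested with every treated tube above every control, against 3.28% of all genes. The log2 fold change was 1.56 (SE 1.02, edgeR adjusted p = 1.0), which did not pass the test. The counts behind it were few, 7, 22 and 10 in the controls and 43, 54 and 17 with AMD3100. Ctsg had 8 counts, all in 1 library, and Elane had none.

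The arrestins, receptor kinases and trafficking proteins that desensitize and sort the receptors were all tested, with 9 of 16 above 0, 7 below and a median of 0.06. This median was 0.16 without control replicate 1 and -0.11 without control replicate 2. Rab7, the GTPase of late endosomes, had the highest mean CPM over the 6 libraries, though Grk6 or Rab11a was higher in each control, and stood at 83.3 ± 14.4 CPM in the controls and 109 ± 22.8 CPM with AMD3100, with a log2 fold change of 0.38 (SE 0.30), or 0.22 (SE 0.34) without AMD3100 replicate 2. With the replicate number as a block its SE was 0.16 and its unadjusted p was under 0.05. Rab11a, the GTPase of recycling endosomes, had all treated tubes below all controls, by a small amount (log2 fold change -0.24, SE 0.26, or -0.15, SE 0.29, without control replicate 3). It was the 1 of these 16 genes in which this held, against 4.17% of all genes.

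G proteins and signalling proteins below CXCR4 had 45 of 47 genes tested, 16 above 0 and 29 below, with a median of -0.09. Gnai2, an inhibitory G protein alpha subunit of the kind that CXCR4 couples to, had the highest mean CPM, though not in the replicate 3 tubes, at 620 ± 213 CPM in the controls and 658 ± 262 CPM with AMD3100. Of the 45 tested, 2 genes had an unadjusted p under 0.05, both lower with AMD3100, against 0.397% of all genes higher and 1.28% lower. Neither was past the adjusted threshold, and 1 of them is described here. All treated tubes lay below all controls for 4 of the 45 and above for 0, beside 4.17% and 3.28% of all genes.

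Elmo1, part of the complex that activates the GTPase Rac in migrating cells, was read at 9.11, 4.15 and 5.68 CPM in the controls and at 2.30, 2.12 and 1.35 CPM with AMD3100. Every treated tube lay below every control, with a log2 fold change of -1.70 (SE 0.70, edgeR adjusted p = 1.0). Its unadjusted p was no longer under 0.05 with limma-voom, with no filter, with the replicate number as a block, with replicates 1 and 2 alone, or without replicate 1 or replicate 3 of either group. The log2 fold change in those settings lay between -1.85 and -1.35. Bcar1, a docking protein of cell adhesion, and Pik3cg, the catalytic subunit of a phosphoinositide kinase that G protein beta and gamma subunits activate, also had all treated tubes below all controls. The log2 fold change of Bcar1 was -0.75 (SE 0.40), or -0.39 (SE 0.48) with replicates 1 and 2 alone, and Pik3cg had 39, 15 and 14 counts in the controls and 16, 0 and 1 with AMD3100.

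Gnb2, a G protein beta subunit, depended on how replicate 3 was treated. It stood at 110, 105 and 421 CPM in the controls and at 33.1, 39.5 and 220 CPM with AMD3100, high in both replicate 3 tubes and lower with AMD3100 at each number. The log2 fold change was -1.13 (SE 0.81), and with replicate 3 as a batch it was -1.36 with an adjusted p of 0.0106 by edgeR. With the replicate number as a block it was also -1.36 (edgeR adjusted p = 0.0622), and with replicates 1 and 2 alone it was -1.58 (SE 0.21). Without a block, leaving out 1 library gave values from -2.57 (SE 0.64, without AMD3100 replicate 3) to -0.13 (SE 0.72, without control replicate 3). Bcar1, Pik3cg, Rab11a and Gnb2 were named after their values were seen.

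Regulators of transcription known to act on Cxcl12 or Cxcr4, which include Vhl, the part of a ubiquitin ligase that marks hypoxia-inducible factors for breakdown, had 7 of 8 genes tested, 4 above 0 and 3 below, with a median of 0.14. This median was -0.09 without AMD3100 replicate 1 and 0.27 without AMD3100 replicate 3. The highest mean CPM was that of Yy1, a zinc finger factor, though Hif1a was higher in the replicate 3 tubes, and Yy1 stood at 80.2 ± 32.4 CPM in the controls and 78.6 ± 35.0 CPM with AMD3100. Epas1, a hypoxia-inducible factor, was read at 2.01, 1.82 and 2.09 CPM in the controls and at 3.92, 3.59 and 5.89 CPM with AMD3100. Epas1 was the 1 of the 7 tested with all treated tubes above all controls, against 3.28% of all genes. Its log2 fold change was 1.17 (SE 0.76, edgeR adjusted p = 1.0). Among the settings tried, its unadjusted p was under 0.05 only with a filter of at least 10 counts in every library (1.16, SE 0.47). Nrf1, whose motif core is in the Cxcr4 window printed here and which was named for that, stood at 24.0 ± 3.59 CPM in the controls and 30.9 ± 14.1 CPM with AMD3100.

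**Figure D5:**
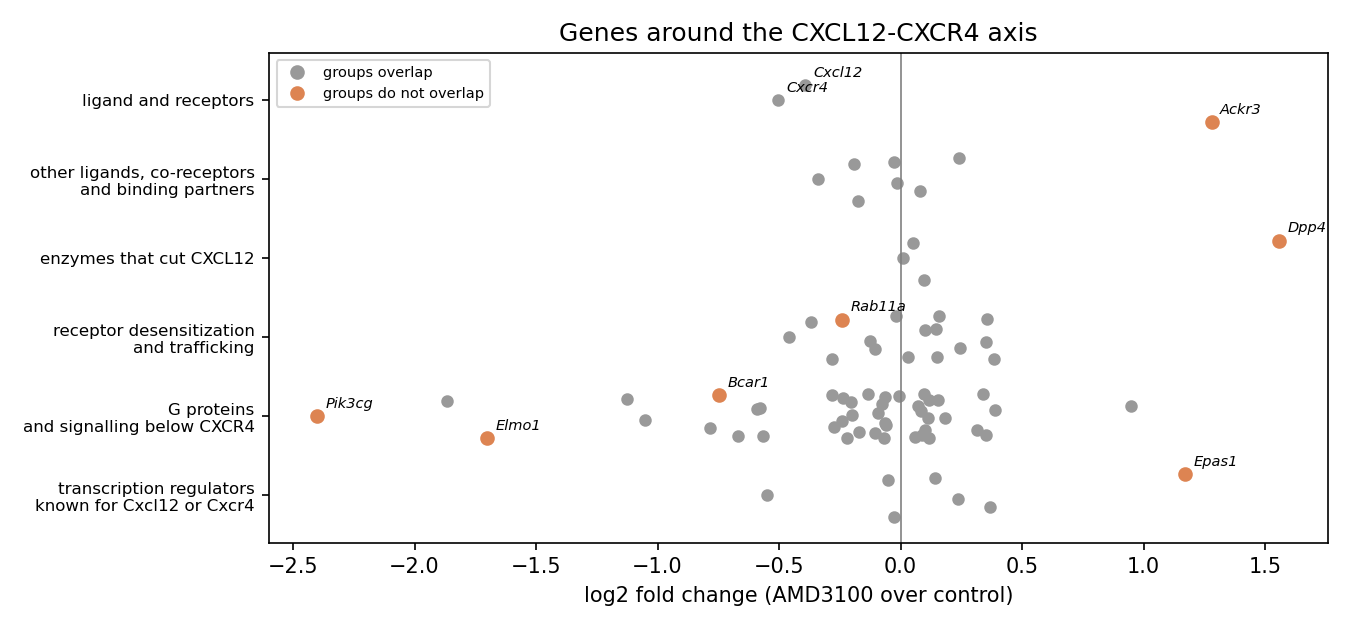
Log2 fold change of AMD3100 against control for the tested genes of the ligand and receptors and of the 5 lists around them, without 1 gene not reported here, 1 row per list and 1 point per gene, with a line at 0. Orange points are genes whose groups did not overlap and grey points the others, and Ackr3, Dpp4 and Epas1 lie above 0 while Elmo1 and Pik3cg lie below.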

How the data were processed

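Raw read counts per gene symbol were deposited by the authors for each of 6 libraries, with no normalization or filter. A 3′ mRNA kit was used and reads were single, of 50 bases. The submitters' processing notes name Bowtie2, edgeR and mm10, and the annotation, the versions and the use of strand or molecular identifiers are not given in the sources used here. Totals ranged from 9051595 to 14393031 counts, so 3 counts, taken as the floor, were 0.208 to 0.331 CPM, for counting error only. Of 23282 lines, 44 repeated a symbol. Those with the same counts in every library, 22 lines, were left out, and the others were kept as lines of their own.

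The main test was edgeR 4.0.16 (R 4.3.3) with TMM, filterByExpr, glmQLFit and glmQLFTest, condition as the only term, and Benjamini-Hochberg adjustment over the 13610 genes kept. Single values were compared by exact permutation over samples. The genes, lists and tests were chosen with earlier results of these data known. Genes named were the ligand and receptors, in each list around them those with p under 0.05, the lowest p or the highest CPM, in each marker list the lowest p, the highest CPM or a marker at 0 throughout, and the 5 nearest profiles. Of these, 2 genes are not reported here.

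Replicate numbers come from the labels of both groups. Deviations from the group means correlated at 0.156, 0.147 and 0.549 for replicates 1, 2 and 3, each over 0.1, and the numbers were taken to pair the tubes, although replicates 1 and 2 correlated as much across numbers (0.167 and 0.132). Alternatives were DESeq2 1.42.0, upper quartile scaling, limma-voom (limma 3.58.1) after quantile normalization, other filters, robust estimation, the replicate block, Rn45s left out, replicate 3 as a batch or left out, and each library left out. The fits were tested on simulated data.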

Additional observations from a re-analysis of the deposited data

How the results depend on the processing

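At an adjusted p under 0.05 there were 0 genes by edgeR, 5 by DESeq2 (Ccdc53, Ccl11, Pmpcb, Smim14 and Txnip), 3 with the replicate block (Mt2, Snrnp70 and Txnip) and 7 with replicate 3 as a batch, none of them Cxcl12, Cxcr4 or Ackr3. The count at an unadjusted p under 0.05, 228 in the report, was 907 with the replicate block, 903 with replicate 3 as a batch, 798 with replicates 1 and 2 only, and 163 to 547 with 1 library left out, the highest without control replicate 3. The pairing by replicate number gave log2 fold changes of -0.38 for Cxcl12, -0.37 for Cxcr4 and 1.76 for Ackr3 and changed no call for them. With 1 library left out, Cxcl12 ranged from -0.56 to -0.14, Cxcr4 from -0.86 to -0.26 and Ackr3 from 0.83 to 2.45. The difference in the log2 ratio of Cxcl12 to Cxcr4 counts, -0.02 in the report, was 0.075 with replicates 1 and 2 only and -0.34 to 0.34 with 1 library left out, so it had no fixed sign. Of the 16 other genes followed with 1 library left out, 2 turned, Lyz2 (-1.69 to 0.46, above 0 without control replicate 3) and Myh8 (-0.74 to 2.07, below 0 without AMD3100 replicate 3). Cdh1, Cldn4, Osr1 and C1qb were not among those followed. The cause was not tested. Ackr3 had 10 to 108 counts a library, the fewest of the 3 genes, and the counting intervals of control replicates 1 and 2 did not overlap.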
